A study of Mus musculus with 14 samples.

Results

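The genes described here are 36 mouse genes of the NRF2, glutathione and thioredoxin systems, the machinery with which a cell senses and removes oxidants. They were chosen by name, from a list of known members, at a time when results of these data were already known. All 36 were found among the 55487 gene entries of the count table, and all 36 were among the 14754 genes with enough reads to be tested. The study measured mRNA by sequencing in mouse bone marrow monocytes that were kept outside the animal for 3 h, either in medium or with interleukin-4 (IL-4) at 20 ng/mL, a cytokine of allergic and helminth responses. The cells came either from wild-type mice or from mice labelled as deficient in AhR, the aryl hydrocarbon receptor, a transcription factor that small aromatic ligands activate. There were 4 wild-type libraries in medium and 4 with IL-4, numbered 1, 2, 3 and 7 in both conditions, and 3 libraries labelled AhR-deficient in each condition, numbered 4, 5 and 6. Every group shares the source (leg bone marrow), the monocyte isolation kit, which by the submitters gave 90 to 95% pure cells, and the 3 h of culture. The sources used here do not give the strain, age or sex of the mice, the way AhR deficiency was made, or whether a library is 1 animal or a pool, so the p-values below measure the spread between these libraries only.

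As background, NRF2 (gene symbol Nfe2l2) is a transcription factor that is held low by KEAP1, an adaptor that delivers it for degradation. When oxidants or electrophiles modify KEAP1, NRF2 accumulates, pairs with a small MAF protein and binds antioxidant response elements, which BACH1 can occupy as a repressor. Its targets include the cystine importer and the enzymes that make glutathione, the thioredoxin reductase and peroxiredoxin cycle, and enzymes that supply NADPH, the electron source for both systems. AhR and NRF2 share several target genes, of which Nqo1 is the best known, and in macrophages this machinery limits oxidative damage during activation.

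The 14 libraries held between 33432502 and 42885079 counts each. All values below are counts per 1000000 counts (CPM), scaled for library composition, and each list of values runs in the order of the library numbers. Changes are log2 ratios ± standard error from edgeR's quasi-likelihood test on all 14 libraries, with Benjamini-Hochberg adjustment over all genes tested and a call at an adjusted p under 0.05. Summed over a fixed list of 7 monocyte markers, the libraries held 4100 to 6230 CPM, against 833 to 1330 CPM over 12 neutrophil markers, 15 to 201 CPM over 8 eosinophil markers, 24 to 116 CPM over 9 erythroid markers and at most 0.21 CPM over 3 NK-cell markers. Eosinophil marker sums were 34.1 to 156 CPM in the wild-type libraries in medium and 15 to 79.3 CPM in those labelled AhR-deficient. With IL-4 they were 36.8 to 201 CPM and 15.4 to 66.1 CPM. None of these 8 genes was called between genotypes. Each was lower under the AhR-deficient label in both conditions, by log2 -0.14 to -1.50 in medium and -0.71 to -1.88 with IL-4. Ahr mRNA itself was above the wild-type level under the AhR-deficient label, by 0.69 ± 0.14 in medium (adjusted p = 0.0144) and 0.71 ± 0.14 with IL-4 (adjusted p = 0.027). A count per gene cannot see whether an exon is missing, so the label could not be checked in this way and is used below as a label. All 6 libraries labelled AhR-deficient held at least 987 CPM of Xist, which is made from an inactive X chromosome, and no counts of the Y-linked Ddx3y, while all 8 wild-type libraries held at most 2.12 CPM of Xist and 114 to 143 CPM of Ddx3y. A difference between genotypes therefore cannot be told apart from a difference between sexes in these data. In bulk RNA, fewer cells of a type and less RNA per cell cannot be told apart either.

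With IL-4, most of the 36 genes fell, in both genotypes. In wild-type cells 22 fell, 4 rose and 10 were not called, where 16.5% of all genes tested fell and 19.4% rose. In the cells labelled AhR-deficient 22 fell, 3 rose and 11 were not called, against 14.2% and 15.4% of all genes. The median change of the 36 was -0.30 in wild-type cells and -0.39 in the others, beside medians over all genes of 0.01 and -0.01. The calls coincided closely: 21 genes fell in both genotypes and Glrx, Me1 and Mgst1 rose in both. Bach1 fell and Gclm rose with a call in wild-type cells alone, Taldo1 fell with a call in the other genotype alone, and no gene was called in opposite directions. The groups with and without IL-4 did not overlap in any library for 23 members in wild-type cells and 24 in the others, where 33.2% and 43.7% of all genes tested were that clearly apart.

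**Figure D1:**
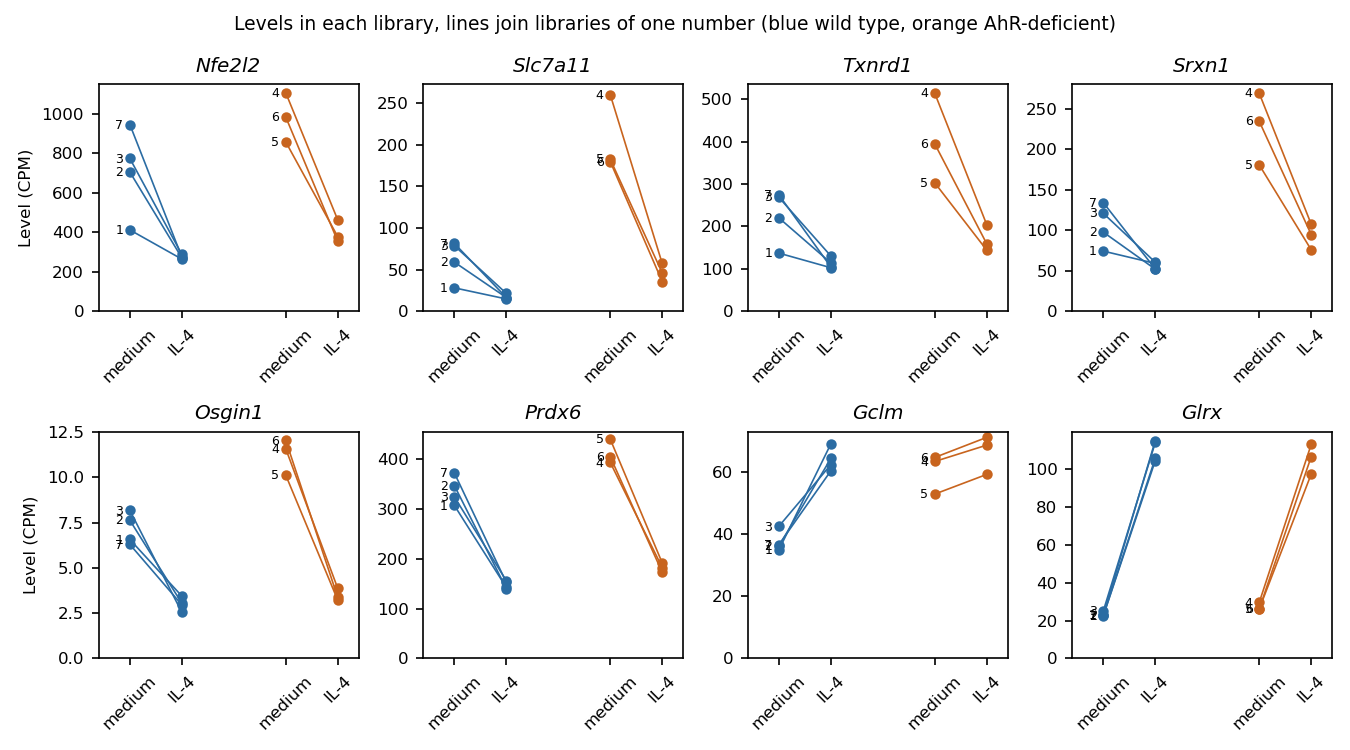
CPM (vertical axis, linear) of 8 of the genes in each of the 14 libraries, wild-type in blue and labelled AhR-deficient in orange, with 1 point per library, its number beside it and a line from medium to IL-4 within a number. Nfe2l2, Slc7a11, Srxn1 and Txnrd1 are lower with IL-4 in both genotypes, Glrx is higher, and Gclm in the medium libraries labelled AhR-deficient (52.8 to 64.5 CPM) lies above the wild-type ones (34.8 to 42.4 CPM).

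Among the regulators, Nfe2l2 mRNA, at chr2:75675513-75704641 (minus strand) on the mouse build GRCm38 (mm10), was 412, 706, 774 and 947 CPM in wild-type medium and 264, 271, 288 and 275 CPM with IL-4. In the cells labelled AhR-deficient it was 1107, 858 and 985 CPM in medium and 463, 378 and 355 CPM with IL-4. Nfe2l2 was lower with IL-4, without overlap between the groups in either genotype, by 2.58-fold in wild-type cells (log2 -1.37 ± 0.19, adjusted p = 4.93e-05) and 2.47-fold in the others (log2 -1.30 ± 0.21, adjusted p = 3.42e-04). Wild-type library 1 in medium stood below the other 3 and carried the smallest fall with IL-4 of any library number, -0.64 on a log2 scale against -1.18 to -1.78 for the other 6. Keap1, which encodes the adaptor that degrades NRF2, did not move with a call in any comparison. It measured 67.2, 59.1, 61.2 and 55.9 CPM in wild-type medium, 62.6, 64.2, 65.1 and 62.9 CPM in wild-type IL-4, 67.8, 60.4 and 67.6 CPM in medium under the AhR-deficient label and 58.5, 61.8 and 67.7 CPM with IL-4 there. These 4 groups overlapped, with changes of 0.07 ± 0.06 and -0.06 ± 0.07.

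Bach1, the repressor of antioxidant response elements, measured 324, 349, 332 and 335 CPM in wild-type medium and 272, 277, 294 and 269 CPM with IL-4, a fall of small size with no overlap (log2 -0.27 ± 0.05, adjusted p = 3.75e-04). Under the AhR-deficient label it measured 279.9, 301 and 299 CPM in medium and 304, 281 and 282 CPM with IL-4, groups that overlapped (log2 -0.02 ± 0.05, adjusted p = 0.831). Mafg, a small MAF partner of NRF2, went from 196, 231, 283 and 262 CPM to 157, 172, 189 and 152 CPM with IL-4 in wild-type cells. In the other genotype Mafg went from 414, 305 and 341 CPM to 225, 209 and 206 CPM. It fell in both, with log2 changes of -0.54 ± 0.11 and -0.73 ± 0.13 (adjusted p = 0.0021 and 7.99e-04). Its locus overlaps Sirt7 on the same strand, and how shared reads were counted is not given in the sources used here. Maff, another small MAF, was low and varied several-fold in wild-type medium. It measured 3.06, 7.94, 7.05 and 11.1 CPM in wild-type medium and 5.5, 5.95, 6.8 and 9.11 CPM with IL-4, and 15.4, 7.29 and 12.5 CPM and 15.5, 11 and 13 CPM in the other genotype. The IL-4 changes of Maff were -0.09 ± 0.31 and 0.17 ± 0.35, with no call.

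Some of these genes carry the sequence that NRF2 is known to bind close to their starts, and a few are shown because the genes below that start both fell and rose with IL-4. Promoter windows of 300 bases (250 before and 50 after a transcription start, RefSeq, GRCm38.p6) were at hand for 32 of the 36 genes, 45 windows in all, and not for Gclc, Gsr, Prdx6 and Abcc1. The core of the antioxidant response element was searched on both strands as TGACNNNGC. It occurred in 11 of the 45 windows (24.4%) and in 12.4% of all 32851 windows of the table. Windows upstream of 5 genes are printed on the strand of the gene, 5′ to 3′, with the matching letters in capitals. A match on the opposite strand appears as the reverse complement of the core.
Nfe2l2 (fell with IL-4), chr2:75704870-75704913 (minus strand): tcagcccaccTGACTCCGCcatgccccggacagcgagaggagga
Txnrd1 (fell), chr10:82859089-82859147 (plus strand): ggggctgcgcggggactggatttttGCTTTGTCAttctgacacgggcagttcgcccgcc
Prdx1 (fell), chr4:116685441-116685499 (plus strand): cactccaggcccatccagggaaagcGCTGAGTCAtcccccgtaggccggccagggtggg
Mgst1 (rose), chr6:138140446-138140504 (plus strand): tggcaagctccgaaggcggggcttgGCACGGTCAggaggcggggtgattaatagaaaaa
Gclm (rose with a call in wild-type cells alone), chr3:122245398-122245456 (plus strand): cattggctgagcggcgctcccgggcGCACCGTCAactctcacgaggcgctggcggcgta
The matches begin 240 bases upstream of the annotated start in Nfe2l2, 92 in Txnrd1, 133 in Prdx1, 56 in Mgst1 and 134 in Gclm. Txnrd1 has 3 annotated starts in the table and Mgst1 has 2, of which 1 each holds the match, and counts per gene do not say which start was used. Srxn1, Pgd, Me1, Mafg, Maff and Sod1 also held a match, which in Srxn1 and Pgd begins 28 and 3 bases after the annotated start. The windows of Slc7a11 and Nqo1 held none, and a match farther than 250 bases upstream would not be seen. The core of the xenobiotic response element, which AhR is known to bind, was searched as GCGTG on both strands and occurred in 26 of the 45 windows (57.8%), beside 32.4% of all windows. A STAT6 site, searched as TTC and GAA with 4 bases of any kind between them, occurred in 3 of 45 (6.67%) beside 6.95% of all. STAT6 carries the signal of the IL-4 receptor. These are matches of letters, with no measurement of binding. The windows compared were not matched for base composition or for expression of their genes, so a difference in these shares is no test of enrichment.

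Cystine import and glutathione synthesis split by gene. Slc7a11, at chr3:49892526-50443614 (minus strand), encodes the cystine-glutamate exchanger that supplies the rate-limiting building block of glutathione. It measured 28, 59, 78.7 and 81.4 CPM in wild-type medium and 14.7, 16.4, 21.4 and 16.4 CPM with IL-4, then 260.2, 183 and 179.8 CPM and 57.3, 45.9 and 35.6 CPM under the AhR-deficient label. The 4 IL-4 values were below all 4 medium values in wild-type cells and the 3 IL-4 values below all 3 in the others, a fall of 3.59-fold and 4.49-fold (log2 -1.85 ± 0.28 and -2.17 ± 0.32, adjusted p = 1.25e-04 and 1.24e-04). These were the largest falls among the 36 genes in both genotypes. Glutamate-cysteine ligase, which commits cysteine to glutathione, has a catalytic subunit (Gclc) and a modifier subunit (Gclm). Gclm, at chr3:122245557-122270732 (plus strand), rose in wild-type cells from 34.8, 36.1, 42.4 and 36.5 CPM to 68.8, 64.2, 62.2 and 60.2 CPM, 1.71-fold with no overlap (log2 0.77 ± 0.08, adjusted p = 5.50e-06). In the cells labelled AhR-deficient Gclm was 63.2, 52.8 and 64.5 CPM in medium and 68.5, 59.1 and 71 CPM with IL-4, with overlapping groups (log2 0.14 ± 0.09, adjusted p = 0.32). Gclc did not follow it, with 68, 70, 75.3 and 73 CPM and then 77.9, 72.6, 73.2 and 69.8 CPM in wild-type cells. In the other genotype Gclc was 96.8, 76.4 and 89.2 CPM and then 80.5, 70.5 and 80.4 CPM, and neither change was called (0.04 ± 0.07 and -0.18 ± 0.08). With the replicate number as a block the Gclc change under the AhR-deficient label was -0.18 ± 0.06 and was called (adjusted p = 0.032). Gss, which joins glycine to complete glutathione, was 16.3, 17, 18.6 and 15.2 CPM in wild-type medium and 10.6, 11.4, 14.1 and 14 CPM with IL-4. The values of Gss in the other genotype were 21.2, 19.6 and 21 CPM and 14.5, 12.4 and 14.8 CPM. It fell without overlap in both (-0.43 ± 0.10 and -0.57 ± 0.11), and it lies across Acss2 on the opposite strand.

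Of the 10 genes that recycle, use or export glutathione, 5 fell and 2 rose in each genotype. Glrx, which encodes glutaredoxin, the enzyme that takes glutathione off oxidised proteins, had the largest rise of the set among genes above 3 CPM. It was 22.8, 22.5, 25.1 and 22.7 CPM in wild-type medium and 115, 104, 114 and 106 CPM with IL-4, 4.71-fold higher (log2 2.24 ± 0.06, adjusted p = 9.64e-12). Under the AhR-deficient label Glrx went from 29.5, 26.1 and 26.1 CPM to 113, 97.3 and 106 CPM, 3.87-fold higher (log2 1.95 ± 0.07, adjusted p = 2.10e-10). Every IL-4 library exceeded every medium library by a wide margin. Mgst1, a membrane glutathione transferase and peroxidase, rose less, from a range of 167 to 192 CPM to 194 to 233 CPM in wild-type cells and from 153 to 179 CPM to 209 to 227 CPM in the others (0.25 ± 0.07 and 0.37 ± 0.08).

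Gsr, glutathione reductase, which restores reduced glutathione with NADPH, went the other way. It was 306, 327, 368 and 294 CPM in wild-type medium and 222, 238, 272 and 267 CPM with IL-4, and 437, 394 and 388 CPM and 318, 317 and 277 CPM in the other genotype. Gsr fell without overlap in both (-0.38 ± 0.08 and -0.42 ± 0.10). Esd, S-formylglutathione hydrolase of the formaldehyde-clearing pathway, fell by nearly the same amount in each genotype. It went from 284, 300, 333 and 309.9 CPM to 152, 144, 160.3 and 153 CPM in wild-type cells (-1.01 ± 0.06, adjusted p = 7.57e-09). In the others it went from 392, 353 and 369 CPM to 187, 173 and 172 CPM (-1.06 ± 0.07, adjusted p = 2.88e-08). Abcc1, a pump for glutathione conjugates, was 57.1, 69.5, 93.8 and 82.4 CPM in wild-type medium and 50.5, 51.2, 67.5 and 48.6 CPM with IL-4, where library 3 of the IL-4 group (67.5 CPM) lay above library 1 of the medium group. The values of Abcc1 under the AhR-deficient label were 123, 82.8 and 105 CPM and 65.5, 52.4 and 58.5 CPM, without overlap. It fell, with log2 changes of -0.48 ± 0.16 (adjusted p = 0.0289) and of -0.81 ± 0.18 (adjusted p = 0.00346), and the wild-type call was lost when medium library 3 or 7, or IL-4 library 1, 2 or 7, was left out, with adjusted p-values up to 0.0918. Gpx1, a glutathione peroxidase, fell, with log2 changes of -0.26 ± 0.08 and -0.36 ± 0.09 from a range of 608 to 669.7 CPM in wild-type medium and 624 to 799 CPM in the other genotype. The wild-type call of Gpx1 was lost without medium library 1 or IL-4 library 2 or 7 (adjusted p up to 0.072), and the other without medium library 6 (adjusted p = 0.054). Gstm1, a cytosolic glutathione transferase in a cluster of similar copies, fell, with log2 changes of -0.30 ± 0.09 in wild-type cells, where the groups overlapped, and -0.28 ± 0.10 in the others. The wild-type call of Gstm1 was lost without number 1 in both conditions (-0.24 ± 0.09, adjusted p = 0.0624) and without numbers 1 and 2 (-0.16 ± 0.11, adjusted p = 0.353). Its call in the cells labelled AhR-deficient held in 4 of the 14 fits that each left out 1 library and was lost in the other 10, with adjusted p-values up to 0.181. The lipid peroxidase Gpx4 (93.3 to 120.5 CPM over all libraries), the transferase Gsto1 (82.1 to 109 CPM) and the microsomal Mgst2 (3.55 to 5.70 CPM) were not called.

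Of the 7 thioredoxin and peroxiredoxin genes, 6 were called lower in each genotype. Txnrd1, at chr10:82833951-82897712 (plus strand), is the cytosolic reductase that recharges thioredoxin. It was 137, 220.1, 269 and 274 CPM in wild-type medium and 103, 114, 130.3 and 104 CPM with IL-4, and 514, 303 and 395 CPM and 204, 144 and 159 CPM under the AhR-deficient label. The groups did not overlap, and Txnrd1 fell, with log2 changes of -1.0 ± 0.21 (adjusted p = 0.00161) and -1.26 ± 0.24 (adjusted p = 0.00105). Srxn1, at chr2:152105516-152111376 (plus strand), encodes sulfiredoxin, which repairs over-oxidised peroxiredoxins. Its values were 74.1, 97.5, 121 and 134 CPM, then 58.9, 51.8, 60.3 and 52 CPM with IL-4 in wild-type cells, and 269, 181 and 234 CPM, then 107, 75.8 and 94.6 CPM in the others. Srxn1 fell, with log2 changes of -0.93 ± 0.17 (adjusted p = 6.23e-04) and -1.30 ± 0.20 (adjusted p = 1.68e-04), again with no overlap. Prdx6, a peroxiredoxin that also reduces lipid peroxides, at chr1:161240112-161251219 (minus strand), fell with little spread among the libraries. It fell from 307, 347, 324 and 373 CPM to 143, 140.2, 156 and 152 CPM in wild-type cells and from 394, 440.3 and 405 CPM to 183, 192 and 173 CPM in the others. The 2.29-fold and 2.26-fold falls (log2 -1.19 ± 0.06 and -1.18 ± 0.07) had adjusted p-values of 5.45e-09 and 4.10e-08.

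The other thioredoxin and peroxiredoxin genes moved less. Prdx5, a peroxiredoxin of mitochondria and peroxisomes, went from 335, 334, 417 and 352 CPM to 269, 249, 330.3 and 286 CPM in wild-type cells and from 521, 422 and 451 CPM to 292, 326 and 300.3 CPM in the others. Prdx5 fell, with log2 changes of -0.34 ± 0.10 and -0.60 ± 0.11 (adjusted p = 0.0121 and 8.55e-04), and it overlaps Trmt112 on the opposite strand. Txn1, thioredoxin itself, was 152, 157, 167 and 152 CPM, then 136, 124, 138 and 133 CPM with IL-4 in wild-type cells, and 184, 168 and 187 CPM, then 132, 129 and 139 CPM in the others. Txn1 fell, with log2 changes of -0.24 ± 0.05 and -0.43 ± 0.06, with no overlap in either. Prdx1 fell, with log2 changes of -0.29 ± 0.07 and -0.42 ± 0.08 from 298 to 324 CPM and 327 to 400.3 CPM. The cytosolic Prdx2 was the exception, at 56.7 to 78.0 CPM over all libraries and with no call (-0.02 ± 0.06 and -0.08 ± 0.07). Its locus overlaps Junb (374 CPM on average) on the opposite strand, and since the strand setting of the counting is not given in the sources used here, reads of the pair cannot be told apart.

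**Figure D2:**
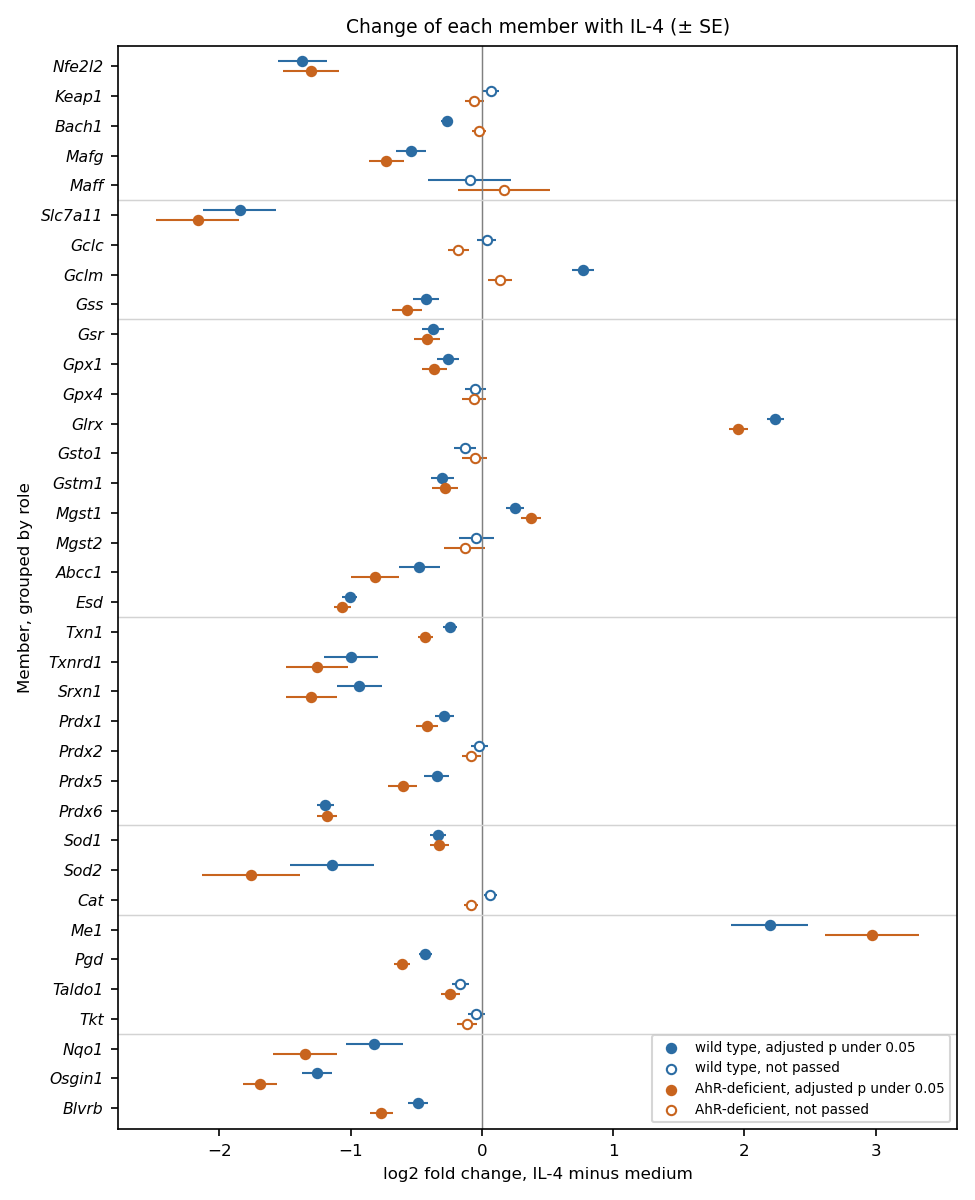
Log2 change with IL-4 (horizontal axis, bars are standard errors) of all 36 genes in wild-type cells and in cells labelled AhR-deficient, with calls filled. Most points of both genotypes lie left of 0, Slc7a11 lies farthest left (-1.85 and -2.17), and Glrx and Me1 lie farthest right.

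Superoxide and peroxide enzymes split. Sod2, the mitochondrial superoxide dismutase, was 77.4, 139, 218 and 173 CPM in wild-type medium and 53.8, 55.4, 113 and 52.8 CPM with IL-4, where library 3 stayed high. In the other genotype Sod2 was 356, 174 and 236 CPM in medium and 90.9, 65.8 and 69.6 CPM with IL-4. It fell, with log2 changes of -1.14 ± 0.32 in wild-type cells, where the groups overlapped (adjusted p = 0.0126), and of -1.76 ± 0.38 in the others, where they did not (adjusted p = 0.00262). The cytosolic Sod1 fell, with log2 changes of -0.33 ± 0.06 and -0.33 ± 0.07, from 258 to 327 CPM and 273 to 285 CPM, and it overlaps Scaf4 on the opposite strand. Catalase (Cat), which splits hydrogen peroxide in peroxisomes, lay between 49.7 and 61.1 CPM in all libraries and was not called.

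Of the genes that supply NADPH or belong to the pentose phosphate pathway, Me1, the cytosolic malic enzyme, rose from very few counts. It was 0.486, 0.193, 0.484 and 0.315 CPM in wild-type medium and 1.67, 1.51, 1.39 and 2.26 CPM with IL-4, and 0.138, 0.284 and 0.306 CPM and 1.84, 1.65 and 2.31 CPM in the other genotype. The groups did not overlap, and the rises were 2.19 ± 0.29 (adjusted p = 4.33e-05) and 2.97 ± 0.36 (adjusted p = 2.12e-05), from 7 to 20 and 5 to 11 counts per library in medium. Pgd, the second NADPH-producing enzyme of the pentose phosphate pathway, fell from 493, 490, 551 and 497 CPM to 361, 376, 402 and 368 CPM in wild-type cells. In the others Pgd fell from 622, 569 and 592 CPM to 389, 380 and 399 CPM (-0.43 ± 0.05 and -0.61 ± 0.06, adjusted p = 1.50e-05 and 3.04e-06). Transaldolase (Taldo1) changed by -0.17 ± 0.06 in wild-type cells without a call (adjusted p = 0.0577) and fell, with log2 changes of -0.24 ± 0.07 in the others (adjusted p = 0.0232). With the replicate number as a block the wild-type change of Taldo1 was called too (-0.16 ± 0.05, adjusted p = 0.0248), and the call in the other genotype was lost without medium library 4 or 6 or IL-4 library 4 or 5 (adjusted p up to 0.109). Transketolase (Tkt) was not called, at 366 to 461 CPM.

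The remaining 3 targets fell in both genotypes. Nqo1, the quinone reductase that AhR and NRF2 are both known to control, was close to 1 CPM in these cells. It was 0.83, 1.41, 1.14 and 1.2 CPM in wild-type medium and 0.76, 0.633, 0.683 and 0.508 CPM with IL-4, and 2.4, 1.5 and 2.48 CPM and 0.861, 0.799 and 0.838 CPM in the other genotype. Nqo1 fell, with log2 changes of -0.82 ± 0.22 (adjusted p = 0.0094) and -1.35 ± 0.24 (adjusted p = 7.82e-04) without overlap, on 18 to 30 counts per library in wild-type IL-4. Osgin1, an oxidative stress-induced growth inhibitor, fell from 6.57, 7.63, 8.18 and 6.3 CPM to 3.45, 3.05, 2.55 and 2.96 CPM in wild-type cells and from 11.6, 10.1 and 12.1 CPM to 3.87, 3.22 and 3.38 CPM in the others. Its changes were -1.26 ± 0.12 and -1.69 ± 0.13 (adjusted p = 1.23e-06 and 3.56e-07). Blvrb, a biliverdin and flavin reductase, was 19.4, 18.5, 22.2 and 18.9 CPM, then 13.2, 14, 14.9 and 14.4 CPM with IL-4 in wild-type cells, and 30.2, 24.6 and 29.5 CPM, then 16.4, 17 and 16.2 CPM in the others (-0.48 ± 0.08 and -0.77 ± 0.09). None of the 3 overlapped between the groups.

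Levels were also divided by the length of all annotated exons of a gene, merged. Counts per gene do not say which transcripts were used, so a comparison between genes is approximate. In wild-type medium the highest levels were 437.5 CPM per kb for Gpx1, 187 for Nfe2l2, 168.1 for Prdx5 and 167.7 for Taldo1. The lowest were 0.74 for Nqo1 and 0.10 for Me1. With IL-4 Nfe2l2 was at 72.3 CPM per kb in wild-type cells and 105 in the others, and Glrx rose from 4.23 to 20.0 and from 4.96 to 19.2 CPM per kb.

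After 3 h in medium without IL-4, many of the same genes were higher in the libraries labelled AhR-deficient than in wild-type ones. Of the 36, 15 were called higher and Bach1 alone lower, where 4.16% of all genes tested were called higher and 3.95% lower. The median difference was 0.25, beside 0.01 over all genes. The called-higher genes were Mafg of the regulators, Slc7a11, Gclc and Gclm of glutathione synthesis, and Gsr and Esd of glutathione use. Txnrd1, Srxn1, Txn1, Prdx5 and Prdx6 of the thioredoxin and peroxiredoxin genes were also among them. So were Pgd of NADPH supply, Nqo1, Osgin1 and Blvrb. Levels did not overlap between genotypes for 19 members, where 20.0% of all genes were apart, and Gss, Prdx1 and Glrx were the 3 of these without a call. The IL-4 responses above and this difference share the medium libraries. A gene that is high in medium under the AhR-deficient label counts towards both this difference and the fall in those cells. A gene that is high in wild-type medium counts towards the wild-type fall and against this difference.

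The largest difference was in Slc7a11, for which the values given above were 28.0 to 81.4 CPM in wild-type medium and 179.8 to 260.2 CPM under the AhR-deficient label, 3.36-fold higher (log2 1.75 ± 0.28, adjusted p = 0.0057). Srxn1 was 2.14-fold higher (1.10 ± 0.18, adjusted p = 0.00622) and Gclm 1.61-fold higher (0.68 ± 0.09, adjusted p = 0.0016), the smallest adjusted p of the set. Txnrd1 was higher by 0.84 ± 0.22 (adjusted p = 0.0334), Nqo1 by 0.89 ± 0.22 (adjusted p = 0.0302), Osgin1 by 0.65 ± 0.12 (adjusted p = 0.0103) and Blvrb by 0.51 ± 0.08 (adjusted p = 0.00524). The other 8 called genes ranged from 0.20 ± 0.05 for Txn1 to 0.54 ± 0.12 for Mafg. Bach1, the repressor, was lower, with a log2 difference of -0.19 ± 0.05 (adjusted p = 0.0343), with all 3 libraries below all 4 wild-type ones. Nfe2l2 itself was not called (0.47 ± 0.20, adjusted p = 0.143): 2 of the 3 libraries, at 985 and 1107 CPM, lay above all wild-type ones and the third, at 858 CPM, did not. Keap1 was not called (0.10 ± 0.07).

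These genotype calls rest on few libraries. Wild-type library 1 in medium was the lowest of its group for 14 of the 36 genes and the highest for 12. The 14 were Nfe2l2, Slc7a11, Txnrd1, Srxn1, Mafg, Maff, Nqo1, Sod2, Abcc1, Gclm, Gclc, Prdx6, Esd and Bach1. This library also had the highest eosinophil marker sum of its group (155.6 CPM) and the highest basophil and mast cell sum (120.2 CPM). Wild-type medium library 2 had a nearly equal eosinophil sum (149.9 CPM) and 49.69 CPM of the basophil and mast cell markers. The part of these sums in the low values of library 1 was not tested. Of 16 members called in medium, 8 were called without wild-type medium library 1 and 6 without wild-type medium library 2. Without libraries 4 and 6 labelled AhR-deficient in medium, 4 and 7 were called. Without number 1 in both conditions 5 were called, and without wild-type numbers 1 and 2, none. With the granulocyte marker score as a covariate 5 were called, and in a fit of only the medium libraries, with 5 residual degrees of freedom, 1 was, Gclm. Gclm, Slc7a11, Srxn1 and Blvrb were the 4 genes called in each of the 14 fits that left out 1 library, and Osgin1 lost its call without library 4 labelled AhR-deficient. The direction held in all 25 alternatives for each of the 16. Of the IL-4 calls, 24 of 26 in wild-type cells and 22 of 25 in the others held in each of the 14 fits. Without wild-type numbers 1 and 2, 20 members were called in wild-type cells, with the calls of Gss (adjusted p = 0.114), Gsr (0.0704), Prdx1 (0.123), Prdx5 (0.0718), Gpx1 (0.166) and Gstm1 (0.353) lost. Over all alternatives run, 19 of the 26 wild-type calls and 22 of the 25 others held in every one.

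**Figure D3:**
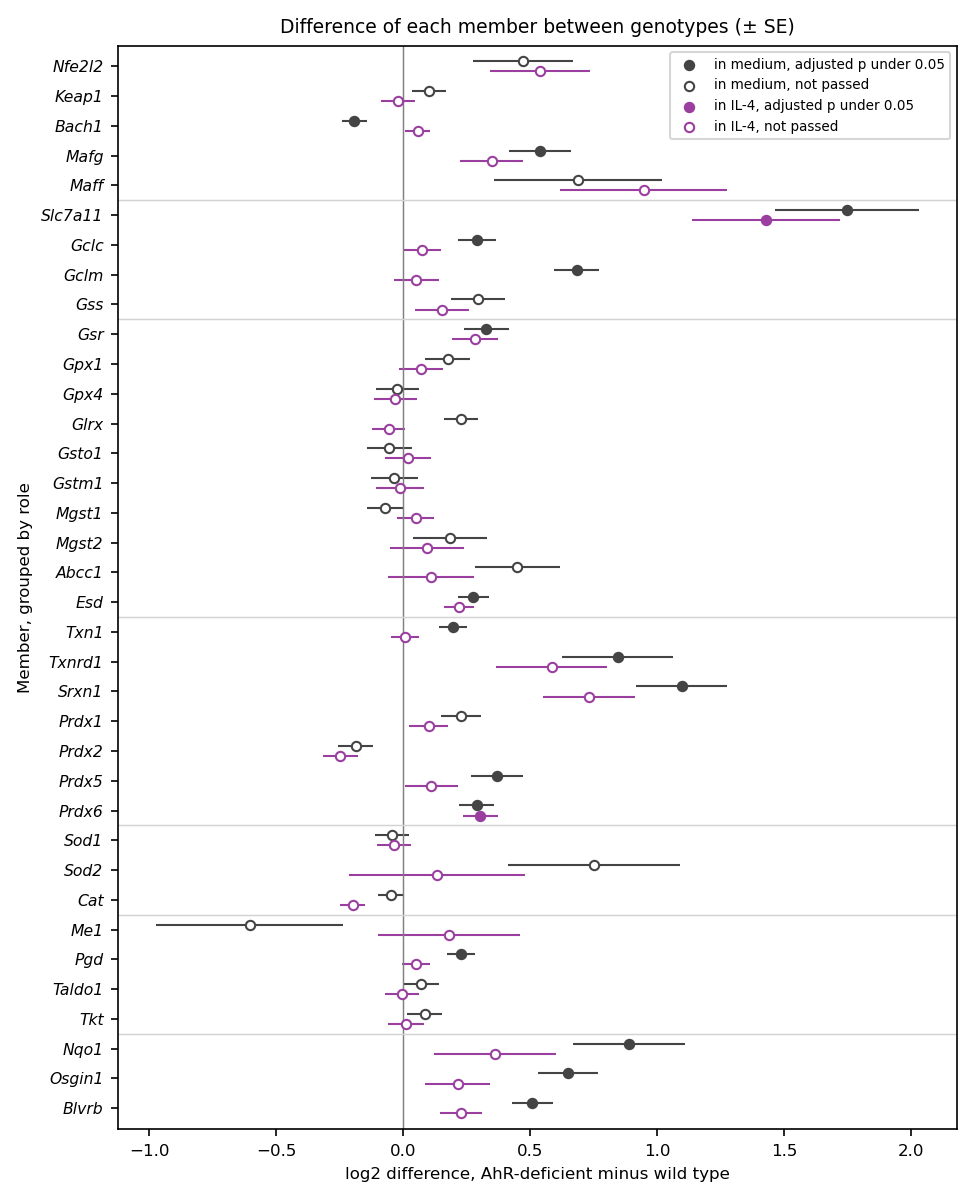
Log2 difference between libraries labelled AhR-deficient and wild-type ones (bars are standard errors) for the 36 genes, in medium and with IL-4, with calls filled. In medium 15 genes are called to the right of 0, led by Slc7a11 at 1.75, and with IL-4 the calls are Slc7a11 at 1.43 and Prdx6 at 0.30.

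**Figure D4:**
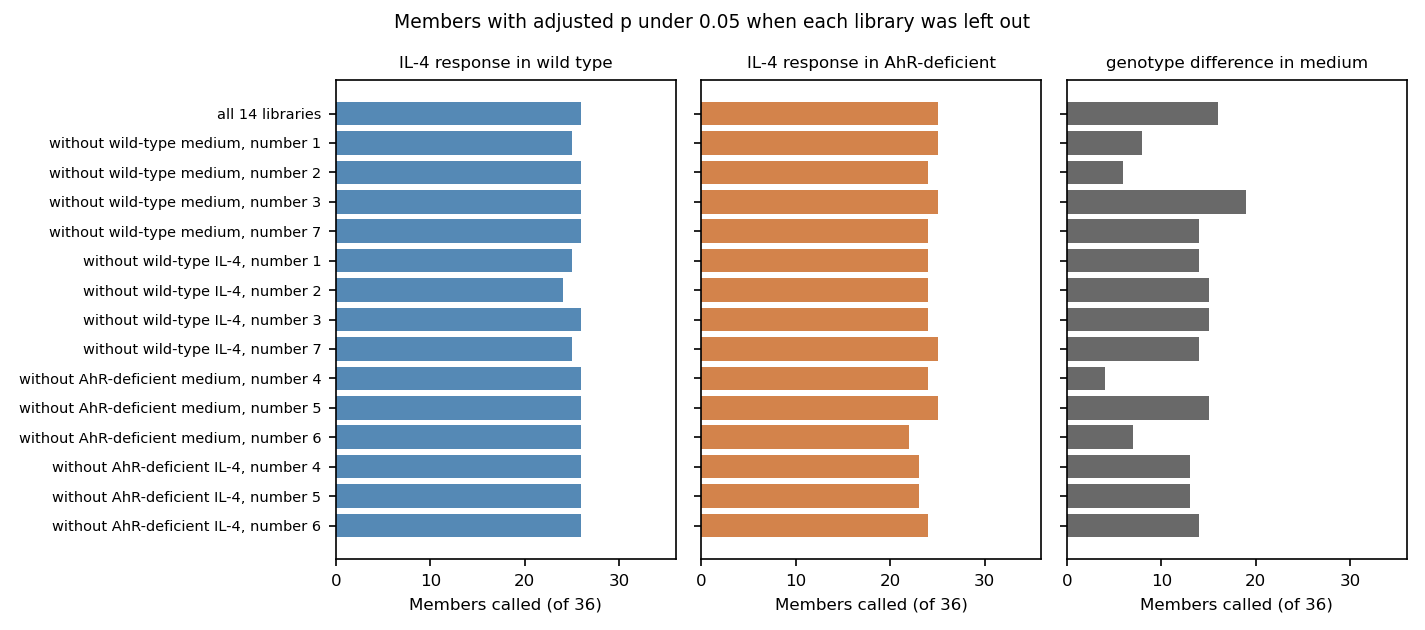
Number of the 36 genes called in each fit that left out 1 of the 14 libraries, for both IL-4 responses and the genotype difference in medium. The counts for the genotype difference in medium spread from 4 to 19, while those of the IL-4 responses lie between 24 and 26 in wild-type cells and between 22 and 25 in the others.

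With IL-4, fewer differences between genotypes were called. Slc7a11 and Prdx6 were higher under the AhR-deficient label, 2 of 36, where 0.956% of all genes tested were called higher and 0.664% lower. Slc7a11 was 35.6 to 57.3 CPM against 14.7 to 21.4 CPM in wild-type cells, 2.69-fold higher (log2 1.43 ± 0.29, adjusted p = 0.0328). Prdx6 was 173 to 192 CPM against 140.2 to 156 CPM, higher by 0.30 ± 0.07 (adjusted p = 0.046). Both are close to the threshold: the Slc7a11 call was lost without wild-type IL-4 library 1, 2 or 7 or library 4 or 5 labelled AhR-deficient with IL-4, and the Prdx6 call held in 5 of the 14 such fits. Levels did not overlap between genotypes for 13 members, 11 higher and 2 lower, where 18.2% of all genes were apart. The 11 of these without a call include Nfe2l2 (0.54 ± 0.20, adjusted p = 0.166), Srxn1 (0.73 ± 0.18, adjusted p = 0.0584) and, on the lower side, Prdx2 (-0.25 ± 0.07) and Cat (-0.20 ± 0.05). Gclm, apart between genotypes in medium, had overlapping ranges with IL-4, 60.2 to 68.8 CPM and 59.1 to 71.0 CPM (difference 0.05 ± 0.09, adjusted p = 0.809).

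Whether IL-4 acted differently in the 2 genotypes was tested as an interaction, the response under the AhR-deficient label minus that in wild-type cells. By edgeR no member was called, nor any other gene (0.0%), so differences between the genotypes' lists of calls above are not shown to be differences in response. At an unadjusted p under 0.05 in edgeR there were 7 members, where 3.78% of all genes passed. With the replicate number as a block there were 12, where 8.48% did. Gclm had the smallest interaction p of the set (-0.63 ± 0.13, unadjusted p = 1.94e-04, adjusted p = 0.955; with the replicate block -0.63 ± 0.09, adjusted p = 0.102). Under DESeq2 the same difference in Gclm, -0.62 ± 0.14, was called (adjusted p = 0.0284), also with the block (-0.62 ± 0.11, adjusted p = 9.94e-05). In the edgeR and limma-voom alternatives it was not called, with adjusted p-values from 0.0841 to 1.0. By DESeq2 1 member and 3 genes of all tested had a called interaction, and by limma-voom none of the 36. Paired by number, the 4 wild-type libraries rose by 0.55 to 0.97 and the 3 others by 0.11 to 0.16 on a log2 scale. Bach1 was next (0.25 ± 0.07, unadjusted p = 0.00337), then Glrx (-0.28 ± 0.09, unadjusted p = 0.0093), with adjusted p-values in edgeR of 1 for both. The responses by number were 2.16 to 2.31 in wild-type cells and 1.88 to 2.01 in the others for Glrx, and -0.34 to -0.17 and -0.10 to 0.12 for Bach1.

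A wider list of 96 genes of the same systems that are not among the 36 was examined, of which 86 were tested. In wild-type cells 15 of these rose with IL-4, 22 fell and 49 were not called, where 19.4% of all genes tested rose and 16.5% fell. In the cells labelled AhR-deficient 8 rose, 27 fell and 51 were not called, beside 15.4% and 14.2% of all genes. Their median changes were -0.05 and -0.03. Sephs2, which makes the selenium donor for selenoproteins, fell, with log2 changes of -1.44 ± 0.08 and -1.38 ± 0.09. Fth1, the ferritin heavy chain that stores iron, fell, with log2 changes of -2.09 ± 0.14 and -2.30 ± 0.17, Msrb1, a selenoprotein that repairs methionine sulfoxide, with changes of -1.03 ± 0.06 and -0.85 ± 0.07, and the transporter Abcc5 with changes of -1.06 ± 0.11 and -1.29 ± 0.13. Sesn1, a sestrin, rose by 0.55 ± 0.08 and 0.47 ± 0.09, Mthfd1, a folate enzyme, by 0.51 ± 0.08 and 0.45 ± 0.09, and Selenos, a selenoprotein of the endoplasmic reticulum, by 0.53 ± 0.09 and 0.39 ± 0.10. In medium 13 of the 86 were higher under the AhR-deficient label and 5 lower, beside 4.16% and 3.95% of all genes. With IL-4, 2 of the 86 differed, both higher, beside 0.956% of all genes higher. Hmox1, haem oxygenase and a textbook target of NRF2 and BACH1, and Slc3a2, the partner chain of the Slc7a11 exchanger, fall outside the naming rule and were picked with their values already known. Hmox1 fell with IL-4, with log2 changes of -1.17 ± 0.16 and -1.40 ± 0.19. Slc3a2 changed by -0.06 ± 0.06 (not called) in wild-type cells and fell, with log2 changes of -0.22 ± 0.07 in the others, and it was higher under the AhR-deficient label by 0.55 ± 0.06 in medium and 0.39 ± 0.06 with IL-4.

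Some markers of the cells were also called in these contrasts. With IL-4 in wild-type cells 3 of 7 monocyte markers fell and 1 rose, 1 of 12 neutrophil markers rose and 1 of 9 erythroid markers fell. Of all genes tested 19.4% rose and 16.5% fell there. In the cells labelled AhR-deficient 2 of 7 monocyte markers fell and 1 rose, and 1 of 12 neutrophil markers rose. Of all genes tested 15.4% rose and 14.2% fell in these cells. Their monocyte marker sum was lower with IL-4 without overlap (4850 to 5630 CPM in medium and 4100 to 4610 CPM with IL-4). In wild-type cells the sums overlapped (4900 to 6230 and 5010 to 5430 CPM). Of 3 dendritic cell markers tested, Flt3 was called higher with IL-4 in both genotypes (mean 34.6 to 76.5 CPM in wild-type cells and 33.1 to 80.6 CPM in the others), while Zbtb46 (4.26 to 2.94 and 6.75 to 4.22 CPM) and Siglech (6.41 to 6.64 and 5.06 to 3.94 CPM) were not called. Between genotypes in medium 1 of 7 monocyte markers was higher and 2 were lower under the AhR-deficient label, beside 4.16% and 3.95% of all genes. Fcgr1 differed by 0.60, Adgre1 by -0.47 and Ccr2 by -1.75 (mean 1280 CPM in wild-type cells and 381 CPM in the others, adjusted p = 0.00985). Of 12 neutrophil markers 1 was called higher, Csf3r (0.40). Elane (0.59) and Mpo (0.68) were higher without a call. Retnlg, Mmp9, S100a9, Ly6g, S100a8, Camp, Cebpe, Ltf and Mmp8 were lower without a call, by -1.21 (Retnlg) to -0.30 (Mmp8). With IL-4, Fcgr1 was higher (0.97) and Ccr2 lower (-1.75, adjusted p = 0.0204), beside 0.956% and 0.664% of all genes. The part of these markers in the results above was not tested beyond the fit with the granulocyte score.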

How the data were processed

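RNA from isolated bone marrow monocytes was sequenced as stranded mRNA libraries with 100-nt paired reads, per the labels' protocols. The deposited table holds whole-number counts per Ensembl gene for 14 libraries. The submitters' processing notes name FastQC, STAR and the mouse build mm10 without versions. The counting program, annotation release, strand setting and treatment of reads that map to several places are not stated there. Gene symbols, positions and exon lengths were taken from the GENCODE annotation at hand, which matched 55094 of 55487 gene entries with their version.

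Counts were tested with edgeR 4.0.16 in R 4.3.3: filterByExpr on the 4 groups, TMM scaling, 1 mean per group over all 14 libraries (10 residual degrees of freedom), quasi-likelihood F-tests and Benjamini-Hochberg adjustment over 14754 genes. Standard errors were taken from the F statistic, as the absolute log2 change over its root. The comparisons were IL-4 against medium in each genotype, genotype in each condition, and their interaction. Paired log2 changes used a pseudocount of 0.5 CPM. The steps were also run on simulated counts with known changes. These were drawn independently for each library, without pairing by number and without differences in sex or cell composition. They cannot show how the fits behave where such structure is present.

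The members and lists were chosen with earlier results of these data known. Values in every library are given for the regulators and Nqo1, for members called in an IL-4 response with a log2 change of at least 0.5, for members called between genotypes and for the 3 smallest interaction p-values. Of the wider list, up to 4 genes per direction with the smallest adjusted p in each IL-4 response were named.

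Replicate numbers were checked for pairing over 9687 genes. Deviations from the group means correlated between the medium and IL-4 libraries of the same number at 0.157 to 0.733. Each of the 7 numbers correlated best with itself, but for number 7 the margin was small (0.157, against 0.0896 for the best other library). The numbers were used as pairs in the replicate block and the paired log2 changes only. The main fit did not pair the libraries. Alternatives were DESeq2 1.42.0, limma 3.58.1 (voom), 2 other scalings, 2 other filters, a granulocyte marker score as covariate, the replicate block, only the groups compared, and libraries left out. The fits with the block in DESeq2 and limma-voom, without number 1, and on autosomal genes only were added after seeing the data. No pair of libraries within a group agreed within sampling noise (chi-square per degree of freedom 13.8 to 60.2).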

Additional observations from a re-analysis of the deposited data

Results flagged for a closer look

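In 4 of 72 groups of 4 libraries, 1 library lay far from the other 3 by Dixon's criterion, which chance alone meets in about 1 group in 20. Wild-type library 3 was the one in each case. It held 25.06 CPM of Glrx and 550.9 CPM of Pgd in medium, and 113 CPM of Sod2 and 67.48 CPM of Abcc1 with IL-4, each the highest of its group. Catalase (Cat) was higher with IL-4 in all 4 wild-type pairs and lower in all 3 pairs labelled AhR-deficient, a difference of -0.15 on the log2 scale. The interaction test of that difference by edgeR gave -0.15 ± 0.07 with an adjusted p of 1.0, so it was not called.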

How the results depend on the processing

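No called value of the 36 genes reversed its sign under any alternative that was run, and the counts of members called in both IL-4 responses stayed within 1.5 times. With the replicate block 27 members were called in wild-type cells (4 higher, 23 lower) and 26 in those labelled AhR-deficient (3 and 23), the added genes being Taldo1 and Gclc, and over all genes 6297 and 5344 were called beside 5296 and 4359 without it. The block changed no other call of a member. No number occurs in both genotypes, so the genotype differences cannot have the block.

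For the genotype difference in medium, the all-gene count of 1197 became 1990 by DESeq2, 59 with only the groups compared, 348 with the granulocyte score, 30 without wild-type numbers 1 and 2, and 467 without wild-type number 1 in both conditions. Members called, 16 in all with 15 higher and 1 lower, became in the last 4 of these fits 1, 5, 0 and 5, all higher and 0 lower. By DESeq2 all 16 kept their call, and Prdx1 and Glrx were called higher as well. Leaving out 1 library gave 95 to 1716 genes and 4 to 19 members, 4 to 17 higher and 0 to 2 lower.

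For the genotype difference in IL-4, the all-gene count of 239 became 802 by DESeq2, 361 without a filter, 523 with only the groups compared, 27 with the granulocyte score, 25 without numbers 1 and 2, and 116 without number 1. Members called, 2 in all, became 7 by DESeq2 (5 higher, 2 lower), 8 with only the groups compared (7 higher, 1 lower), 0 with the granulocyte score, 0 without numbers 1 and 2, 1 without number 1 and 1 on autosomal genes only. Upper quartile scaling added 1 lower. Leaving out 1 library gave 24 to 533 genes and 0 to 7 members, 0 to 5 higher and 0 to 2 lower. For the genotype by IL-4 interaction, DESeq2 called 3 genes, and 60 with the replicate block, each time with 1 member, Gclm, lower. Fits with fewer libraries have fewer residual degrees of freedom. For the other alternatives the cause was not tested. Me1 and Nqo1 rest on few counts, which limits their precision.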
